A study of Sus scrofa with 30 samples.

Results

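Retinol transport and retinoic acid metabolism were followed in single pig embryos through a list of 9 genes, of which 6 were matched by gene symbol to an NCBI gene identifier in the table of 13103 genes counted in all embryos. The 6 genes were RBP4, CRABP2, ALDH1A1, ALDH1A2, RARA and RARG. TTR, STRA6 and CRABP1 were not analysed here. The symbols were chosen for their roles, with earlier results of these data known.

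Vitamin A circulates as retinol, which is carried in plasma by the retinol-binding protein RBP4 together with transthyretin (TTR) and enters cells through receptors such as STRA6. Within the cell, retinol is oxidized reversibly to retinal by retinol dehydrogenases, and retinal is oxidized irreversibly to retinoic acid by the retinal dehydrogenases of the ALDH1A family. The binding protein CRABP2 brings retinoic acid to the nucleus, where retinoic acid receptors (RARA, RARB, RARG) paired with retinoid X receptors act on target genes, and enzymes of the CYP26 family break retinoic acid down. The elongating pig conceptus and the pregnant endometrium are both known to make retinol-binding protein.

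The embryos were flushed on Days 8, 10 and 12 after insemination from German Landrace × Pietrain gilts, 4 gilts on each day. The gilts had been cycle-synchronized with hormones and carried embryos of a single Pietrain boar, and the mRNA of 10 whole embryos, 5 female and 5 male, was sequenced for each day. No embryo was treated or genetically modified. Females and males were drawn from shared gilts, but which gilt an embryo came from is unknown, so the p-values measure the spread between these embryos, with litter and embryo not separated.

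Between 6068212 and 34002508 reads per embryo were assigned to genes. Levels are CPM, the read counts scaled to the size of each library with TMM factors, and are given as mean ± SD over embryos. A count of 3 or fewer was taken as the floor of detection, which corresponded to 0.0823 CPM in the deepest library and to 0.434 CPM in the shallowest. These limits cover counting error only. CPM is not corrected for gene length, so levels were compared between embryos and not between genes.

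Differences between days were tested with the quasi-likelihood F test of edgeR in 1 fit of 3 day groups, and a gene was called at an adjusted p (FDR) under 0.001 with a log2 fold change beyond 1. From Day 8 to Day 10, 2 of the 6 genes were called, RBP4 as higher and CRABP2 as lower, where 14.1% of all genes were called (9.88% as higher and 4.20% as lower). Between Days 10 and 12, 3 of the 6 were called, RBP4 and RARA as higher and RARG as lower, where 23.3% of all genes were called (14.9% as higher and 8.39% as lower). Between Day 8 and Day 12, 4 of the 6 were called, 2 in each direction, beside 32.5% of all genes (22.0% as higher and 10.4% as lower). ALDH1A1 and ALDH1A2 were called in none of the 3 comparisons. The embryos of the days did not overlap for 3, 3 and 4 of the 6 genes, against 22.0%, 16.6% and 31.7% of all genes. The comparisons share embryos, and with 6 genes these counts describe the list only.

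**Figure D1:**
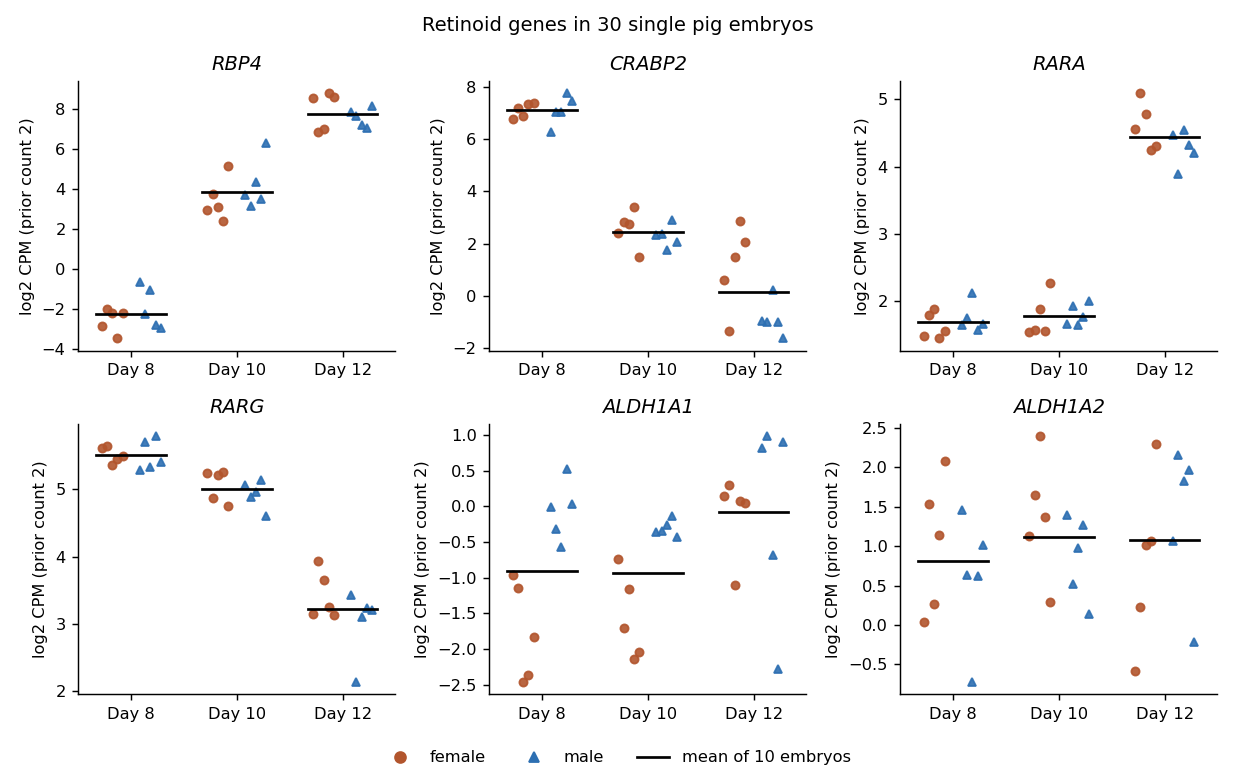
Level of each of the 6 genes in the 30 embryos, on a log2 CPM scale (prior count 2) against day. Circles are female embryos, triangles male embryos and lines the mean of the 10 embryos of a day, and RBP4 rises at each step while CRABP2 drops most between Day 8 and Day 10, and RARA and RARG move in opposite directions by Day 12.

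RBP4 (gene 397124, chromosome 14 from 105037360 to 105044552 of Sscrofa11.1), the plasma carrier of retinol, was close to absent on Day 8 and abundant on Day 12. On Day 8 its level ran from 0 to 0.548 CPM with a median of 0.121, and 7 of the 10 embryos were at or under the floor, with 41 counts over all 10. On Day 10 the level ran from 5.04 to 76.7 CPM with a median of 11.9. On Day 12 it ran from 112 to 434 CPM with a median of 212. No embryo of one day overlapped with an embryo of another. RBP4 was 112-fold higher on Day 10 than on Day 8 (log2 fold change 6.80 with SE 0.59, adjusted p = 6.02e-11) and 12.0-fold higher on Day 12 than on Day 10 (log2 fold change 3.59 with SE 0.42, adjusted p = 1.17e-08). Between Day 8 and Day 12 the log2 fold change was 10.39 (SE 0.63, adjusted p = 3.17e-15).

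On the log2 scale the spread of RBP4 between embryos was wider on Day 10 than on Days 8 and 12, with SDs of 1.16, 0.87 and 0.72. The Day 10 mean was 19.8 CPM ± 21.7 and the Day 12 mean 239 CPM ± 118 (SD, n = 10 each). On Day 10 male embryo d10_m_453 had 76.7 CPM and female embryo d10_f_454 had 34.7 CPM. The other 8 embryos lay between 5.04 and 20.2 CPM. The log2 SD of Day 10 was larger than that of 96.5% of all genes on that day, and that of Day 8 than 95.7%. On Day 8 male embryo d08_m_103 held 20 of the 41 counts, and without it the log2 fold change was 7.44 from Day 8 to Day 10 and 11.03 from Day 8 to Day 12. The call in each comparison held without that embryo.

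The annotated interval of RBP4 overlaps that of PDE6C, a phosphodiesterase subunit gene of cone photoreceptors. PDE6C had 0 to 8 counts per embryo on Day 8, 0 to 37 on Day 10 and 9 to 56 on Day 12. RBP4 reached 2124 counts on Day 10 and 14050 on Day 12. The highest PDE6C count of Day 10 and that of Day 12 came from male embryo d10_m_453 and female embryo d12_f_297, which also had the highest RBP4 counts of their days. Whether the counting used the strand is not given in the sources used here, so reads in the shared stretch cannot be assigned with certainty.

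Hypoblast gives rise to yolk sac endoderm, which is known to make RBP4 in mammals. Of 11 measured markers of hypoblast and its derivatives, 7 were called higher and 1 lower on Day 12 than on Day 10, where 14.9% of all genes were called higher and 8.39% lower. Among those called higher was HNF4A, a transcription factor of endoderm, with a log2 fold change of 2.28. The summed level of the 11 markers ran from 780 to 1700 CPM on Day 8, from 801 to 1535 CPM on Day 10 and from 1409 to 6938 CPM on Day 12, and the apolipoprotein APOA1, with means of 637, 938 and 2551 CPM, made up most of it. At the first step, when RBP4 rose 112-fold, none of the 11 markers was called higher and 1, GATA6, was called lower. GATA6, a transcription factor of hypoblast, had means of 142, 55.5 and 44.5 CPM on the 3 days. Of 3 measured markers of mesoderm and primitive streak, T and HAND1 were called higher at that first step, where 9.88% of all genes were. EOMES was not called. The log2 fold changes of T and HAND1 were 3.81 and 10.37, from Day 8 means of 0.0915 and 0.0624 CPM. From Day 10 to Day 12 HAND1 was called higher (3.79) and T and EOMES lower (-4.89 and -6.01). In whole embryos, fewer or more cells of a type and less or more RNA per cell cannot be told apart. The part of hypoblast and of mesoderm in the rise of RBP4 was not tested.

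Within a day, RBP4 was compared with the mean log2 CPM of 5 hypoblast transcription factors (GATA4, GATA6, SOX17, FOXA2 and HNF4A) over the 10 embryos. Pearson's r on Days 8, 10 and 12 was 0.47, 0.57 and 0.71, with adjusted p of 0.185, 0.120 and 0.0856 by two-sided permutation tests over 3 relations. The Day 8 value rests on few counts, since RBP4 was at or under the floor in 7 of the 10 embryos. Spearman's rho was 0.33, 0.45 and 0.65, with adjusted p of 0.347, 0.286 and 0.148 by permutation. Without the 2 embryos farthest from the median of the marker mean, r was -0.16, 0.28 and 0.56. No relation passed the threshold on any day, and with library size alone r on Day 10 was 0.14. The relation of RBP4 with TTR was not analysed here.

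The endometrium is a further known source of RBP4. Of 5 endometrial markers, 2 were measured, ACP5 (uteroferrin) and UPTI (a protease inhibitor of uterine fluid), and PGR, SAL1 and PAEP were not analysed here. UPTI, which made up nearly all of the sum, and ACP5 together had 182 to 376 CPM on Day 8, 638 to 1549 CPM on Day 10 and 2333 to 6296 CPM on Day 12, and UPTI was called higher at both steps (log2 fold changes 1.53 and 2.18). HBB, the only listed marker of blood matched by symbol to a counted gene, ran from 0 to 0.111 CPM on Day 8. It ran from 0 to 6.86 CPM on Day 10 and from 0.118 to 8.36 CPM on Day 12. ACP5 and HBB were called at neither step. From Day 8 to Day 12 UPTI, ACP5 and HBB were called higher, where 22.0% of all genes were. Of the count tables made per day, ACP5 and HBB passed the authors' limit on weak expression only in that of Day 12. Their mean levels were highest on that day, so these 2 calls cannot be weighed against that share. The log2 fold changes of UPTI, ACP5 and HBB were 3.71, 3.23 and 6.25, with HBB at or under the floor in every Day 8 embryo. The part of maternal cells in the level of RBP4 was not tested.

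ALDH1A1 (gene 100517137, chromosome 1 from 226163347 to 226217342) and ALDH1A2 (gene 100737077, chromosome 1 from 113932722 to 114037059) encode retinal dehydrogenases, the enzymes of the last step to retinoic acid. Both were low in every embryo. ALDH1A1 ran from 0.0927 to 1.34 CPM on Day 8, from 0.136 to 0.821 CPM on Day 10 and from 0.116 to 1.88 CPM on Day 12, with medians of 0.502, 0.580 and 0.985. Its log2 fold changes were -0.18 (SE 0.45, adjusted p = 0.749) from Day 8 to Day 10 and 1.05 (SE 0.44, adjusted p = 0.0426) from Day 10 to Day 12, and neither passed.

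ALDH1A2, the main retinoic acid synthase of early mammalian embryos, held 0.517 to 4.13 CPM on Day 8, 1.01 to 5.16 CPM on Day 10 and 0.579 to 4.83 CPM on Day 12. The ranges of the days overlapped, and the log2 fold changes were 0.27 (SE 0.36, adjusted p = 0.537), 0.13 (SE 0.36, adjusted p = 0.781) and, from Day 8 to Day 12, 0.40 (SE 0.36, adjusted p = 0.324). Variation between embryos of a day was large for both genes, with a coefficient of variation between 52.2% and 72.5%.

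CRABP2 (gene 100155151, chromosome 4 from 93388198 to 93393861), the carrier of retinoic acid to its receptors, went the opposite way from RBP4. On Day 8 its level ran from 77.4 to 217 CPM with a median of 139. On Day 10 it ran from 2.73 to 10.5 CPM with a median of 5.14, and no Day 10 embryo reached the lowest Day 8 embryo. CRABP2 was 25.4-fold lower on Day 10 than on Day 8 (log2 fold change -4.66 with SE 0.43, adjusted p = 2.72e-10).

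On Day 12 the CRABP2 level ran from 0.232 to 7.14 CPM with a median of 0.747. The range overlapped with that of Day 10, and the log2 fold change of -1.62 (SE 0.43, adjusted p = 0.0016) did not pass. Female embryo d12_f_297 had 7.14 CPM and female embryo d12_f_299 had 4.06 CPM, and the other 8 embryos lay between 0.232 and 2.69 CPM. Without embryo d12_f_297 the log2 fold change was -2.30 (adjusted p = 7.8e-06) and without embryo d12_f_299 it was -1.80 (adjusted p = 0.000785), and the gene was called in each case. From Day 8 to Day 12 CRABP2 fell by 6.28 on the log2 scale (SE 0.48, adjusted p = 6.33e-13), and without embryo d12_f_297 by 6.97.

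Epiblast is the founder of the embryo proper. The summed level of POU5F1, NANOG and SOX2 ran from 27.1 to 46.7 CPM on Day 8, from 12.6 to 23.0 CPM on Day 10 and from 0.64 to 4.05 CPM on Day 12, where NANOG and SOX2 were at or under the floor in every embryo. At the first step only POU5F1 of the 3 was called lower, where 4.20% of all genes were. Its log2 fold change was -1.10, and CRABP2 had one of -4.66. From Day 10 to Day 12 all 3 were called lower, where 8.39% of all genes were and CRABP2 was not. The summed trophectoderm markers (CDX2, GATA2, GATA3, TFAP2C, KRT8 and KRT18) ran from 20567 to 25208 CPM on Day 8 from 32648 to 50036 CPM on Day 10 and from 8556 to 26482 CPM on Day 12. KRT8 and KRT18 made up nearly all of this sum. KRT8 was called higher at the first step, where 9.88% of all genes were, and the other markers were not called. Of these, CDX2 and KRT18 had positive log2 fold changes (0.33 and 0.72), and GATA2, GATA3 and TFAP2C negative ones (-0.49, -0.18 and -0.28). For CDX2, KRT8 and KRT18 every Day 10 embryo was above every Day 8 embryo. Days 8 and 10 did not overlap, in either direction, for 22.0% of all genes. At the second step CDX2, KRT8 and KRT18 were called lower and GATA3 higher, beside 8.39% and 14.9% of all genes. The part of cell composition in the fall of CRABP2 was not tested.

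**Figure D2:**
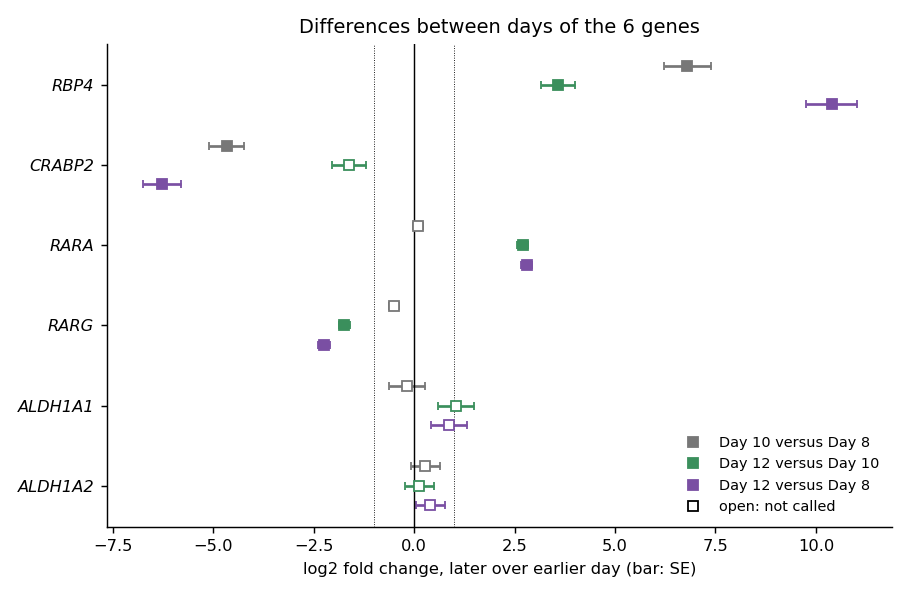
Log2 fold change of the later over the earlier day for the 6 genes in the 3 comparisons, with bars for the SE, a colour for each comparison, filled squares for genes called and dotted lines at a log2 fold change of 1 in either direction. RBP4 lies farthest to the right in each comparison, CRABP2 farthest to the left in the 2 comparisons with Day 8, and the squares of ALDH1A1 and ALDH1A2 are open.

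RARA (gene 396709, chromosome 12 from 22047449 to 22085759) and RARG (gene 100626982, chromosome 5 from 18436267 to 18458625) encode receptors that are switched by retinoic acid. RARA held 2.64 to 4.27 CPM on Day 8, 2.83 to 4.73 CPM on Day 10 and 14.7 to 34.0 CPM on Day 12. Every Day 12 embryo was above every earlier embryo. The log2 fold change was 0.10 (SE 0.13, adjusted p = 0.523) from Day 8 to Day 10 and 2.70 (SE 0.13, adjusted p = 4.05e-17) from Day 10 to Day 12, a 6.49-fold rise.

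RARG was at 45.8 CPM ± 5.45 on Day 8, 32.3 CPM ± 4.87 on Day 10 and 9.67 CPM ± 2.83 on Day 12 (SD, n = 10 each). Its ranges were 39.2 to 55.1, 24.2 to 38.3 and 4.33 to 15.2 CPM, and no range overlapped with another. The step from Day 8 to Day 10 was small (log2 fold change -0.50, SE 0.13, adjusted p = 0.00166) and did not pass. From Day 10 to Day 12 RARG was 3.34-fold lower (log2 fold change -1.74, SE 0.14, adjusted p = 2.07e-12).

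The difference between the log2 levels of RARA and RARG in the same embryo does not depend on how libraries are scaled. It was -3.82 ± 0.31 on Day 8, -3.21 ± 0.41 on Day 10 and 1.21 ± 0.24 on Day 12 (SD, n = 10 each). Its lowest value on Day 12 was 0.99 and its highest before that was -2.49. The difference moved by 0.60 from Day 8 to Day 10 and by 4.43 from Day 10 to Day 12. Since lengths were not used, only its change between days can be read, not its sign. RARA and RARG were also the genes of the 6 that varied least on Days 8 and 10, with SDs of log2 CPM from 0.17 to 0.24 beside a median of 0.23 and 0.29 over all genes.

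The rest of the pathway was described with a list of 53 genes, 37 of which were in the table. From Day 8 to Day 10, 8 of the 37 were called, 6 as higher and 2 as lower, which is 21.6% beside 14.1% of all genes. From Day 10 to Day 12, 13 were called, 7 as higher and 6 as lower, which is 35.1% beside 23.3%. From Day 8 to Day 12, 15 were called, 11 as higher and 4 as lower, which is 40.5% beside 32.5%. The median log2 fold change of the list was 0.34, 0.08 and 0.64 in the 3 comparisons, against 0.03, 0.04 and 0.09 over all genes.

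**Figure D3:**
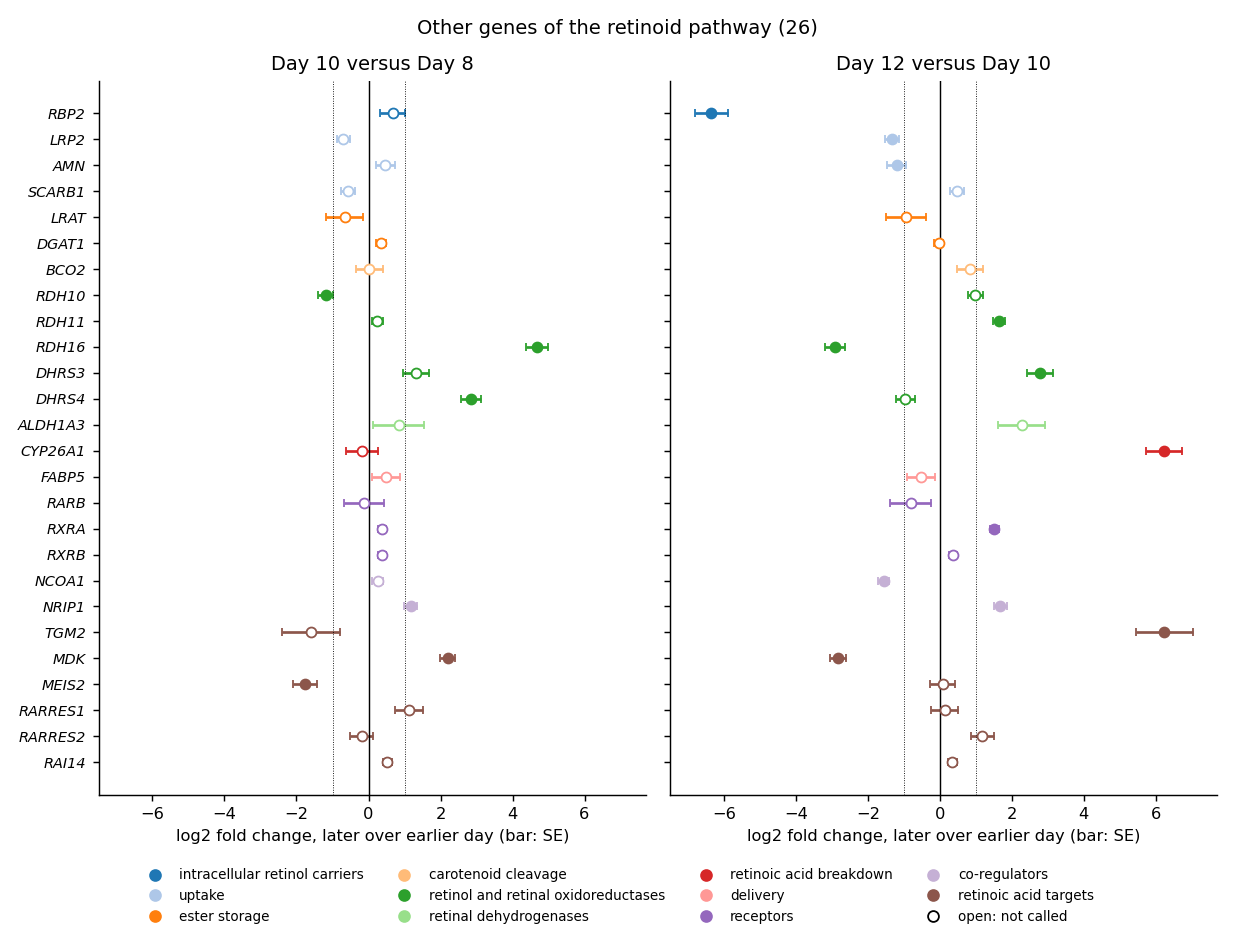
Log2 fold change with SE of the 26 other genes of the retinoid pathway that the text names, coloured by role, from Day 8 to Day 10 on the left and from Day 10 to Day 12 on the right, with filled circles for genes called and dotted lines at a log2 fold change of 1. RDH16 lies farthest to the right in the first comparison, and CYP26A1 and TGM2 farthest to the right and RBP2 farthest to the left in the second.

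CYP26A1, which breaks retinoic acid down and is itself a textbook target of it, was the only CYP26 gene of the list matched by symbol. It ran from 1.03 to 7.46 CPM on Day 8 and from 0.685 to 5.84 CPM on Day 10. On Day 12 it ran from 27.2 to 367 CPM with a median of 195, with no overlap with the earlier days. The log2 fold change from Day 10 to Day 12 was 6.23 (SE 0.50, adjusted p = 3.89e-12). At the first step it was -0.18 (adjusted p = 0.754).

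Among the 7 oxidoreductases of retinol and retinal, 2 rose and 1 fell at each step, where 14.1% and 23.3% of all genes were called. RDH16, a retinol dehydrogenase, rose from 14.3 CPM ± 5.51 on Day 8 to 365 CPM ± 172 on Day 10 (log2 fold change 4.68, SE 0.30) and fell to 48.8 CPM ± 21.4 on Day 12 (log2 fold change -2.90, SE 0.28). DHRS4, a reductase of retinal, rose from 7.34 CPM ± 1.17 to 52.5 CPM ± 38.4 by Day 10 (log2 fold change 2.84, SE 0.27). On Day 12 both genes were still higher than on Day 8, with log2 fold changes of 1.77 and 1.88. RDH10, the main retinol dehydrogenase of the early mouse embryo, fell by 1.19 on the log2 scale from Day 8 to Day 10 (SE 0.21) and on Day 12 did not differ from Day 8 beyond the threshold (log2 fold change -0.21, adjusted p = 0.359).

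DHRS3, which turns retinal back to retinol and is induced by retinoic acid, stood at 3.94 CPM ± 1.10, 9.76 CPM ± 9.05 and 67.1 CPM ± 15.8 on the 3 days, with a log2 fold change of 2.78 (SE 0.36, adjusted p = 8.72e-08) from Day 10 to Day 12. RDH11 rose from 38.4 to 120.7 CPM at the same step (log2 fold change 1.65, SE 0.17). ALDH1A3, the remaining retinal dehydrogenase measured, had 0.155, 0.309 and 1.56 CPM, with 8 of 10 embryos at or under the floor on Day 8, and was called only between Day 8 and Day 12 (log2 fold change 3.11, SE 0.68, adjusted p = 0.00015). Male embryo d08_m_103 had 0.877 CPM of it, and without that embryo the log2 fold change was 4.23.

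**Figure D4:**
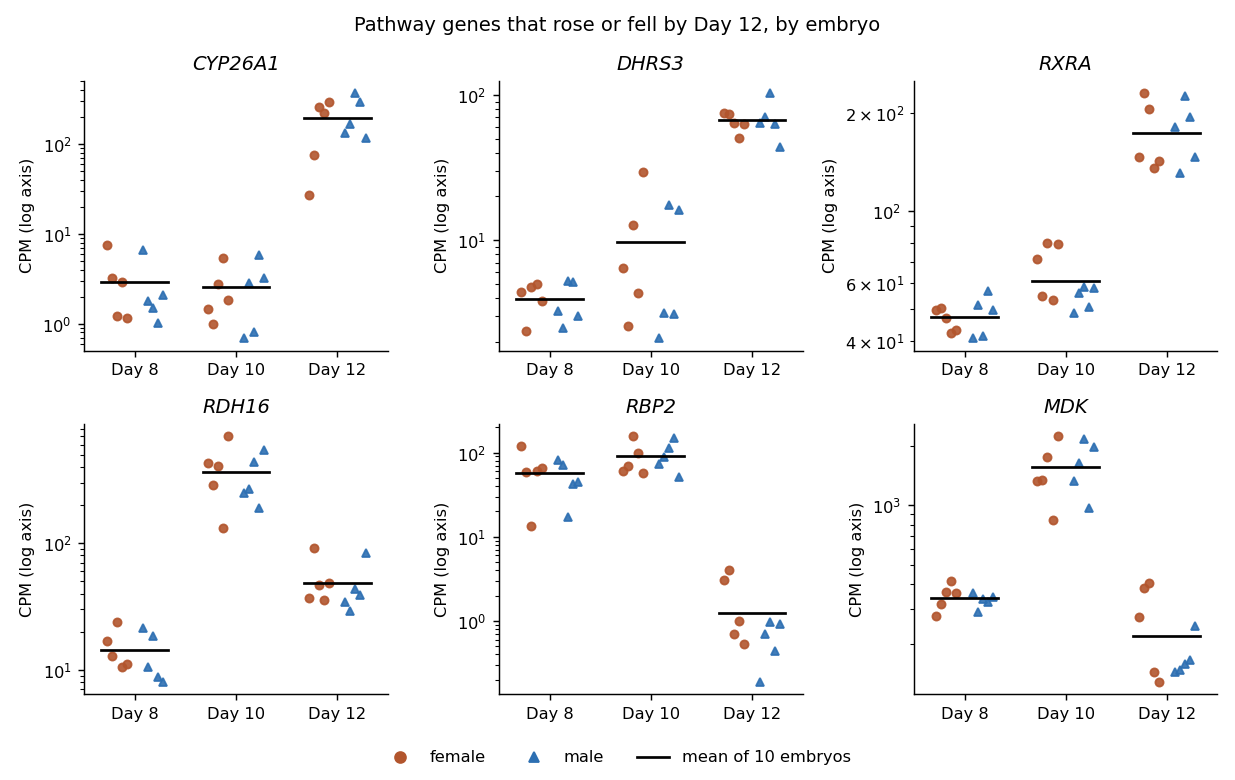
Level in CPM on a log axis against day for 6 pathway genes in the 30 embryos, with circles for female embryos, triangles for male embryos and lines for the arithmetic mean of a day. CYP26A1, DHRS3 and RXRA are highest on Day 12, RDH16 and MDK on Day 10, and RBP2 drops between Day 10 and Day 12.

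RBP2, a retinol carrier inside cells, was at 57.5 CPM ± 31.2 on Day 8, 91.7 CPM ± 37.3 on Day 10 and 1.26 CPM ± 1.26 on Day 12. Its fall from Day 10 to Day 12 was 81.6-fold (log2 fold change -6.35, SE 0.45, adjusted p = 2.52e-13). Every Day 12 embryo, at 0.19 to 4.08 CPM, was below every earlier embryo.

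LRP2 (megalin), an endocytic receptor that takes up the complex of retinol and its carrier, was at 4045 CPM ± 514 on Day 8, 2482 CPM ± 711 on Day 10 and 987 CPM ± 360 on Day 12. It was called lower from Day 10 to Day 12 (log2 fold change -1.33, SE 0.18, adjusted p = 2.4e-07), with no overlap between those days. AMN, a membrane anchor for the receptor cubilin, was called lower at the same step (log2 fold change -1.19). AMN also counts among the hypoblast markers above.

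Of the receptors, RXRA, the partner of the retinoic acid receptors, rose from 61.0 CPM ± 11.6 on Day 10 to 174 CPM ± 38.4 on Day 12 (log2 fold change 1.51 with SE 0.12, adjusted p = 1.17e-12) without overlap between the days. RARB, a classical target of retinoic acid, had 2.84, 2.58 and 1.47 CPM on the 3 days, and RXRB 8.40, 10.8 and 14.0 CPM, and both were called in no comparison. Of 6 co-regulators, the corepressor NRIP1 rose at both steps, by log2 fold changes of 1.17 (SE 0.19) and 1.68 (SE 0.18). The coactivator NCOA1 fell by 1.56 on the log2 scale from Day 10 to Day 12 (SE 0.16).

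Of 8 textbook targets of retinoic acid, 2 rose and 1 fell at each step, beside the same shares of all genes. TGM2, a transglutaminase, had a median of 0.0909 CPM on Day 10, with 7 of 10 embryos at or under the floor, and of 3.43 CPM on Day 12 (log2 fold change 6.23 with SE 0.79, adjusted p = 4.72e-08). Female embryo d12_f_289 reached 58.1 CPM on Day 12, the other 9 embryos lay between 0.434 and 10.9 CPM, and without embryo d12_f_289 the log2 fold change was 4.91 (adjusted p = 7.53e-09). MDK, the growth factor midkine, rose from 338 CPM ± 41.0 on Day 8 to 1557 CPM ± 475 on Day 10 and fell to 219 CPM on Day 12 (log2 fold changes 2.20 and -2.83). MEIS2 fell from Day 8 to Day 10 by 1.77 on the log2 scale. RARRES1, RARRES2 and RAI14 passed in no comparison.

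Of the 4 uptake genes, 2 were called from Day 10 to Day 12, LRP2 and AMN, where 23.3% of all genes were called. Ester storage, carotenoid cleavage and delivery held no call in any comparison. Genes of uptake, ester storage, carotenoid cleavage and delivery that were called in no comparison included SCARB1, a lipoprotein receptor, at 41.5, 28.0 and 39.1 CPM on the 3 days, DGAT1, an acyltransferase that can esterify retinol, at 18.6, 23.6 and 23.1 CPM, BCO2, a carotenoid cleavage enzyme, at 0.472, 0.481 and 0.844 CPM, and FABP5, a fatty acid carrier that can also bind retinoic acid, at 15.6, 22.0 and 15.5 CPM. LRAT, which esterifies retinol for storage, had 0.715, 0.443 and 0.216 CPM and was called in no comparison, but without embryo d12_m_307, the highest of Day 12 at 1.24 CPM, it was called lower from Day 10 to Day 12 (log2 fold change -2.04) and from Day 8 to Day 12 (log2 fold change -2.70).

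Female and male embryos were compared within each day, in the table of that day, at an adjusted p under 0.05. RBP4 and ALDH1A1 were missing from the table of Day 8 and ALDH1A1 from that of Day 10, so 4, 5 and 6 genes were tested. None was called on any day, where 0.658%, 0.223% and 0.123% of the genes of the 3 tables were called. At an unadjusted p under 0.05 there was none on Days 8 and 10 and 1, CRABP2, on Day 12, beside 4.59%, 2.36% and 22.7% of all genes. DESeq2 and the robust GLM of edgeR also called 0 on Days 8 and 10, and each called 1, CRABP2, on Day 12. On Day 8 the log2 fold changes of female over male ran from -0.11 to 0.41, and on Day 10 from -0.93, for RBP4, to 0.61. The RBP4 value of Day 10 rested on male embryo d10_m_453, without which it was 0.0572. None of the 30, 30 and 32 other pathway genes tested was called either, and 0, 1 and 10 of them had an unadjusted p under 0.05.

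On Day 12 the mean CRABP2 level was 3.13 CPM ± 2.64 for females and 0.508 ± 0.322 for males (SD, n = 5 each). The female embryos had 1.45, 0.30, 2.69, 7.14 and 4.06 CPM and the male embryos 0.428, 0.409, 1.07, 0.407 and 0.232 CPM. Of the 5 female embryos, 4 were above every male embryo and 1 was among them, so the groups overlapped, as they did for all but 4.44% of genes. Most of these levels rest on few counts, 10, 5, 50, 231 and 69 in the females and 9, 10, 26, 14 and 6 in the males. The 10 counts of female embryo d12_f_245, at 1.45 CPM, came from the shallowest library. The log2 fold change of female over male was 2.65 (SE 0.70, unadjusted p = 0.0028, adjusted p = 0.198), and a two-sided exact permutation test of log2 CPM gave p = 0.0397.

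The call of CRABP2 depended on the fit. In 1 fit of all 30 embryos in 6 groups of day and sex the adjusted p was 0.00573, but that fit called 20.3% of all genes on Day 12, against 0.275% on Day 8 and 0.214% on Day 10. POU5F1 also had a female over male log2 fold change of 1.31 on Day 12 (adjusted p = 0.198), and in the fit of 6 groups it was called as CRABP2 was (log2 fold change 1.24, adjusted p = 0.00814). The summed epiblast markers ran from 1.40 to 4.05 CPM among females and from 0.64 to 1.72 among males. This sum was nearly all POU5F1, since NANOG and SOX2 were at or under the floor in every Day 12 embryo. In the fit of 6 groups CDX2 of trophectoderm and APOA1 of hypoblast were also called higher in females. Their log2 fold changes were 0.63 and 0.82 (adjusted p = 0.0347 and 0.0479). The part of epiblast in the CRABP2 difference was not tested. The difference between the sex differences of Day 12 and Day 8 was 2.77 on the log2 scale for CRABP2 (SE 0.65, adjusted p = 0.127), and no gene of the table was called in any of the 3 such tests, with 0.763% (Day 10 against Day 8), 18.9% (Day 12 against Day 10) and 21.8% (Day 12 against Day 8) of genes at an unadjusted p under 0.05. DESeq2 called CRABP2 in the last of these (adjusted p = 0.0255).

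ALDH1A1 was below the cutoff of the tables of Days 8 and 10 and was compared in the table of all embryos, a choice made after its values were seen. On Day 8 the female embryos had 0.422, 0.363, 0.0927, 0.106 and 0.191 CPM and the male embryos 0.905, 0.711, 0.582, 1.34 and 0.929 CPM. On Day 10 the female embryos had 0.509, 0.218, 0.356, 0.136 and 0.154 CPM and the male embryos 0.685, 0.695, 0.740, 0.821 and 0.650 CPM. Every female embryo was below every male embryo on each of the 2 days. Over all genes this order was seen for 0.427% (Day 8), 0.267% (Day 10) and 2.82% (Day 12), the sexes did not overlap in either direction for 1.53% on Day 8 and 0.832% on Day 10, and 15 of the 13103 genes, 0.114%, had this order on both.

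These levels rest on few reads, 135 counts over the 10 embryos of Day 8, of which 24 were in females, and 113 over those of Day 10, of which 27 were in females. The two-sided exact permutation p was 0.00794 on each day, the smallest that 252 splits allow. Groups that do not overlap always give this p, so it adds nothing to the order stated above. In the fit of 6 groups the log2 fold change of female over male was -1.92 on Day 8 (SE 0.54, adjusted p = 0.261) and -1.38 on Day 10 (SE 0.53, adjusted p = 1), and neither passed over all genes. With the robust GLM of edgeR the adjusted p of Day 8 was 0.0419. On Day 12 the groups overlapped, at 0.886 CPM ± 0.295 for females and 1.19 ± 0.811 for males, and the log2 fold change was -0.40 (SE 0.63, adjusted p = 0.705).

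**Figure D5:**
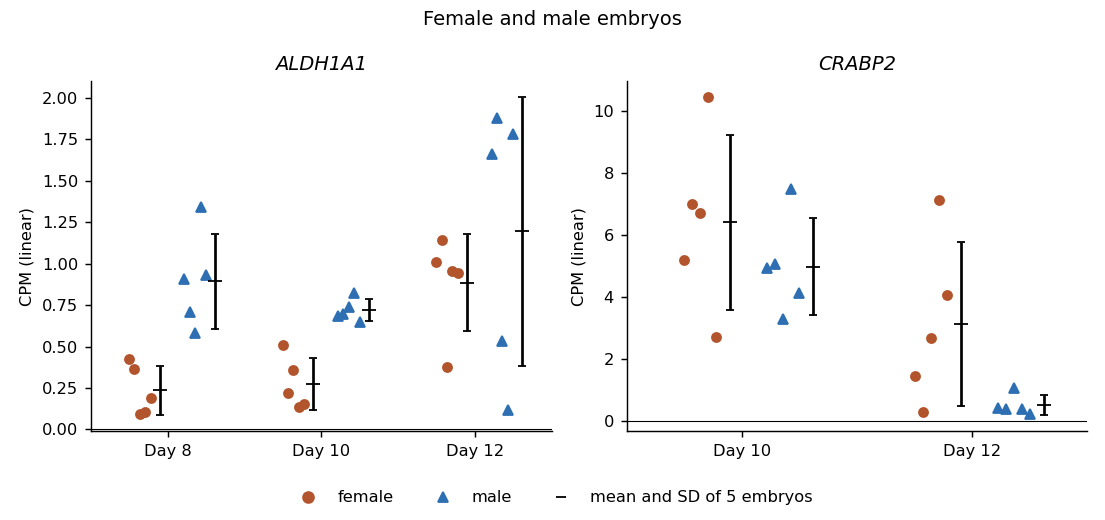
Level in CPM on a linear axis of ALDH1A1 on the 3 days and of CRABP2 on Days 10 and 12, with circles for female embryos, triangles for male embryos and bars for the mean and SD of 5 embryos. On Days 8 and 10 the female circles of ALDH1A1 lie below all male triangles, and on Day 12 CRABP2 in 4 of 5 female embryos lies above all male embryos.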

How the data were processed

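Per the methods, the authors trimmed the single-end reads (Trim Galore), aligned them to the pig genome Sscrofa11.1 and dropped weakly expressed genes by a CPM limit. Aligner, counter and limit are not given in the sources used here. Deposited were unnormalized read counts of NCBI genes, in 1 table of all embryos and 1 table per day (11405, 11675 and 12220 genes). Symbols and positions came from the NCBI gene table of the same build, which held all 13103 identifiers.

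TMM factors, CPM and log2 CPM (prior count 2) were computed from these counts in R 4.3.3 with edgeR 4.0.16. DESeq2 1.42.0 and the robust GLM of edgeR, other scalings and filters, and leaving out each embryo were alternatives. P-values were adjusted by Benjamini-Hochberg over all genes of a table, and the SE is the log2 fold change over the square root of F. Correlations used 100000 resamples. The tests were checked on simulated data. In 60 pairs of embryos of a day and sex the lowest chi-square per degree of freedom was 7.64, so no library was a repeat of another.

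The genes, lists and tests were chosen with earlier results of these data known. Of the pathway list, most called genes and, per role, uncalled genes of the highest level were named, with the 3 genes most like each member considered for likeness. RARB, ALDH1A3, LRAT, RARRES1, RARRES2 and RAI14 were added after their values were seen. Some genes of the list are counted but not reported here by name.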

Additional observations from a re-analysis of the deposited data

Results flagged for a closer look

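Each of the 6 genes was screened for an embryo far from the others of its group, by the gap to its nearest neighbour as a share of the whole range of log2 CPM, over 3 groups of 10 embryos and 6 groups of 5. Of 54 groups, 3 exceeded the 95% critical value of Dixon's test, where chance exceeds it in about 1 in 20. RARG on Day 12 was at 4.33 CPM in male embryo d12_m_275, below the other 9 embryos at 8.49 to 15.2 CPM (gap 0.533 of the range). The same embryo stood out among the 5 male embryos of Day 12, whose other members lay at 8.49 to 10.6 CPM (gap 0.748). ALDH1A1 was at 0.377 CPM in female embryo d12_f_289 of Day 12, below the other 4 female embryos at 0.942 to 1.14 CPM (gap 0.819).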

How the results depend on the processing

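The days were compared again with the robust GLM, DESeq2, RLE factors, library size alone, 2 stricter filters on low counts, sex as a term, only the days compared, each sex alone, a test of whether the fold exceeds the limit, an FDR under 0.05 without fold limit, and each embryo left out. Under all of these the calls of RBP4 in all 3 comparisons, of CRABP2 against Day 8, and of RARA and RARG against Day 12 kept their direction and side of the threshold. CRABP2 from Day 10 to Day 12 became called with the robust GLM (log2 fold change -2.78), DESeq2, sex as a term and male embryos alone (-3.29), but in female embryos alone it was -1.04 (adjusted p = 0.0745). The count of called genes at that step, 3 as reported, was 5 with an FDR under 0.05 and no fold limit, and that from Day 8 to Day 10 was 3 instead of 2, with RARG added. With library size alone the median log2 fold change of all genes moved from 0.03 to -0.15 at the first step and from 0.04 to 0.24 at the second, and RARA from Day 8 to Day 10 was -0.0872. The calls over all genes from Day 8 to Day 10 were then 1027 higher and 811 lower, against 1295 and 550 with TMM, and from Day 10 to Day 12 they were 2396 and 891, against 1951 and 1099. In female embryos alone ALDH1A1 from Day 8 to Day 10 was 0.23, and ALDH1A2 was -0.48 from Day 10 to Day 12 and -0.13 from Day 8 to Day 12. RBP4 from Day 10 to Day 12 was 4.28 in females alone and 2.91 in males alone, and CRABP2 from Day 8 to Day 12 was -5.51 and -8.18. The causes were not tested.

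Between sexes on Day 12, 1 gene, CRABP2, was called with the robust GLM, with DESeq2 and in the fit of 6 groups, and with DESeq2 1 interaction with day, that of CRABP2, was called. With each embryo left out, uncalled log2 fold changes crossed 0 for ALDH1A1 from Day 8 to Day 10 (-0.32 to 0.0418), ALDH1A2 from Day 10 to Day 12 (-0.0272 to 0.34), CRABP2 (-0.21 to 0.13) and RARG (-0.0441 to 0.075) between sexes on Day 8, and RBP4 (-1.62 to 0.0572) and RARA (-0.18 to 0.0347) on Day 10. ALDH1A1 has no value under the filter of a mean of at least 1 CPM, and the relation of RBP4 with TTR was not run. No paired analysis was possible because the labels do not give the gilt of an embryo. Depth limits RBP4 and ALDH1A3 on Day 8, where most embryos had 3 counts or fewer.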

Other observations

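The Day 10 embryos with the most RBP4 were at the upper end for some other pathway genes and at the lower end for others. This pattern was picked out after the values were seen and was not tested. Male embryo d10_m_453 and female embryo d10_f_454, with 76.7 and 34.7 CPM of RBP4, had 125.7 and 120.9 CPM of DHRS4, where the other 8 embryos had 18.1 to 49.1 CPM. They had 542 and 697 CPM of RDH16, against 131 to 442 CPM in the others. Both lay below every other embryo of the day for RDH10 (9.18 and 8.90 CPM) and RBP2 (51.5 and 57.2 CPM). The same held for RARG (24.2 and 27.0 CPM) and ALDH1A2 (1.01 and 1.13 CPM). Female embryo d10_f_433, with the least RBP4 at 5.04 CPM, also had the least RDH16 (131 CPM), DHRS4 (18.1 CPM) and MDK (841 CPM) of the day. HAND1, a transcription factor of extraembryonic mesoderm and trophoblast, was at 166 and 175 CPM in embryos d10_m_453 and d10_f_454 and at 22.7 to 78.1 CPM in the other embryos of Day 10. The mesoderm markers T and EOMES did not set these embryos apart. T was at 2.02 and 1.95 CPM in them and at 0.0913 to 2.94 CPM in the others. EOMES was at 3.54 and 1.80 CPM, against 0.684 to 3.65 CPM in the others.

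The genes most like each of the 6 within days were found by Pearson's r of log2 CPM over 30 embryos after the mean of the day was taken out, as a description without a test. RBP4 was most like WIPI1 (0.77), an autophagy protein, and CRABP2 most like BDH1 (0.70), a mitochondrial enzyme of ketone bodies. ALDH1A1 was most like an unnamed locus (0.69), followed by SEMA6B (0.63), and ALDH1A2 most like MAGI1 (0.79). RARA was most like CSK (0.80), a kinase that restrains SRC, and RARG most like MFSD5 (0.78).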
